A study of Mus musculus with 39 samples.

Results

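The cluster of miR-183, miR-96 and miR-182 is a group of 3 microRNAs (miRNAs) made from neighbouring hairpins of mouse chromosome 6. Its members were taken from the arrays by name, as the rows mmu-miR-183, mmu-miR-96 and mmu-miR-182, which were 3 of the 650 miRNAs measured. miRNAs are short RNAs that pair through their seed, bases 2 to 8 from the 5′ end, with sites in messenger RNAs and lower the output of those messages. The cluster is best known from sensory cells of the ear, the eye and the olfactory epithelium, where its members are abundant and where mutations in the seed of miR-96 cause hearing loss. In other tissues it is found mainly in epithelial cells, as is the miR-200 family.

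The arrays came from TCL-1 cells, a mouse embryonic stem cell (ESC) line, on its way to definitive endoderm, the germ layer that forms gut, liver and pancreas. The cells were kept with LIF on mitomycin C-treated mouse embryonic fibroblasts, and the feeders were removed on gelatin before use. They were then seeded on collagen, cultured overnight and moved to RPMI 1640 medium with B27 and sodium butyrate. All differentiating groups, control included, received this medium. The 4 treatments were Activin A at 100 ng/ml, a ligand of the Nodal branch of TGF-beta signalling, Wnt3a at 50 ng/ml, a ligand of canonical Wnt signalling, the 2 factors together, and no growth factor (control). Cells were collected after 1, 3 and 5 days, which gave 12 groups of 3 arrays, and undifferentiated ESCs gave a group of 3, for 39 arrays in all. One cell line was used, and the labels do not say whether the 3 samples of a group were separate cultures, so p-values measure the spread between these samples, which may be technical. The comparisons ask how the members' levels change as the cells leave the undifferentiated state and how Activin A and Wnt3a, alone or together, alter them.

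The mature sequences are printed because the seeds set which messages each member can reach, and because they show how alike the members are. All come from RefSeq (GRCm38.p6, minus strand of chromosome 6), the seed is in capitals, and an array name with no suffix was matched to the 5p arm.
miR-183 (chr6:30169711-30169732): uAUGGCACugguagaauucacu
miR-96 (chr6:30169506-30169528): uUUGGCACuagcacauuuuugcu
miR-182 (chr6:30165962-30165986): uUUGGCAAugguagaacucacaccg
Counted from 1 at the 5′ end, the seed of miR-183 differs from that of miR-96 by A2U, the seed of miR-96 differs from that of miR-182 by C8A, and miR-183 and miR-182 differ by both. No pair of members therefore shares a whole seed. Among the mature mouse miRNAs of the table, the seed of miR-96 was also carried by miR-1271-5p, which had no row on the array and is not analysed here. The 3 hairpins span 3820 bases, chr6:30165918-30169737. In the direction of transcription miR-183 comes first, miR-96 follows after 116 bases and miR-182 after a further 3453 bases. The span lies inside Mirc35hg, a long non-coding RNA gene annotated as the host of this cluster. The nearest protein-coding genes are Nrf1, 12459 bases away on the lower side, and Ube2h, 41551 bases away on the upper side. The star strand of the first hairpin, miR-183* (miR-183-3p), also had a row on the array.
miR-183* (chr6:30169672-30169693): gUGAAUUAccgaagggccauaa

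Each array gave 1 background-subtracted total signal per miRNA and a flag that says whether the miRNA was detected. All 3 members were detected on all 39 arrays, whereas 143 of the 650 miRNAs were, and between 183 and 375 miRNAs were detected per array. No spot was saturated, and the number of arrays limits the precision. Each member was read by 2 probes of 10 spots each, and over the 39 arrays the log2 signals of the 2 probes of a member correlated with r = 0.968 for miR-183, r = 0.997 for miR-96 and r = 0.928 for miR-182. Levels below are log2 values of the quantile-normalized signal, so a difference of 1 is a 2-fold change, and the level of one miRNA is not compared with that of another. Differences were called at an adjusted p (limma, Benjamini-Hochberg over all miRNAs tested) under 0.05. Quantile normalization sets a value by its rank on the array, so that arrays can share exactly the same value. One array stood apart, replicate 1 of Wnt3a at day 5: its median detected signal was 42.5 against 82.6 and 67.9 on the other two, and its raw signals of miR-183 and miR-96 were 28.0 and 61.9, against 118 and 110 and against 538 and 313. Leaving it out narrows the members' errors in the fits that hold it, and values without it are given where a call changed or a value moved by over 1.5 times. Changes of a treatment effect between days that were not called with all arrays are not given without it. The authors also deposited a matrix of processed values, in which the columns named Activin A and Activin A plus Wnt3a follow each other's arrays on all 18 arrays of these groups. The arrays are used here as labelled, and the sign of every difference between those treatments depends on which deposit is labelled correctly. The arrays lay on 5 slides scanned in 2 sessions, and the slides held unequal mixes of groups. All ESC arrays lay on slide 1, scanned in session 1, and all day 5 arrays on slides 4 and 5, scanned in session 2. Slide, session and group therefore cannot be told apart in any comparison of a day 5 group with ESCs.

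Over the whole course the level of all 3 members differed between groups. In the control, miR-183 and miR-96 rose on leaving the ESC state and all 3 members then fell on the normalized scale. With Activin A the means of miR-183 at days 1, 3 and 5 were 8.31, 7.79 and 7.11 and those of miR-182 were 7.97, 7.62 and 7.30. They too were lower at later days on the normalized scale, while miR-96 was 9.09, 9.14 and 8.83. No test between these days is given. The raw signals with Activin A were not lower than at day 1. They were 152 to 206, 226 to 321 and 207 to 244 for miR-183, and 96.4 to 164, 197 to 271 and 234 to 276 for miR-182. The F-test over the 13 groups gave an adjusted p of 5.09e-14 for miR-183, 4.67e-08 for miR-96 and 1.37e-11 for miR-182 (limma), where 88.5% of the 373 miRNAs tested passed. miR-183 was lowest with Wnt3a at day 5 (5.44 ± 0.68, SD, n = 3), next lowest in the day 5 control (5.92 ± 0.07) and highest with Activin A at day 1 (8.31 ± 0.17). miR-96 ran from 7.25 ± 0.01 in the day 5 control to 9.14 ± 0.02 with Activin A at day 3. miR-182 ran from 6.06 ± 0.06 in the day 5 control to 7.98 ± 0.03 with Activin A plus Wnt3a at day 1. The control and the Wnt3a group of day 5 thus held the lowest places for each of the 3 members, in overlapping order.

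**Figure D1:**
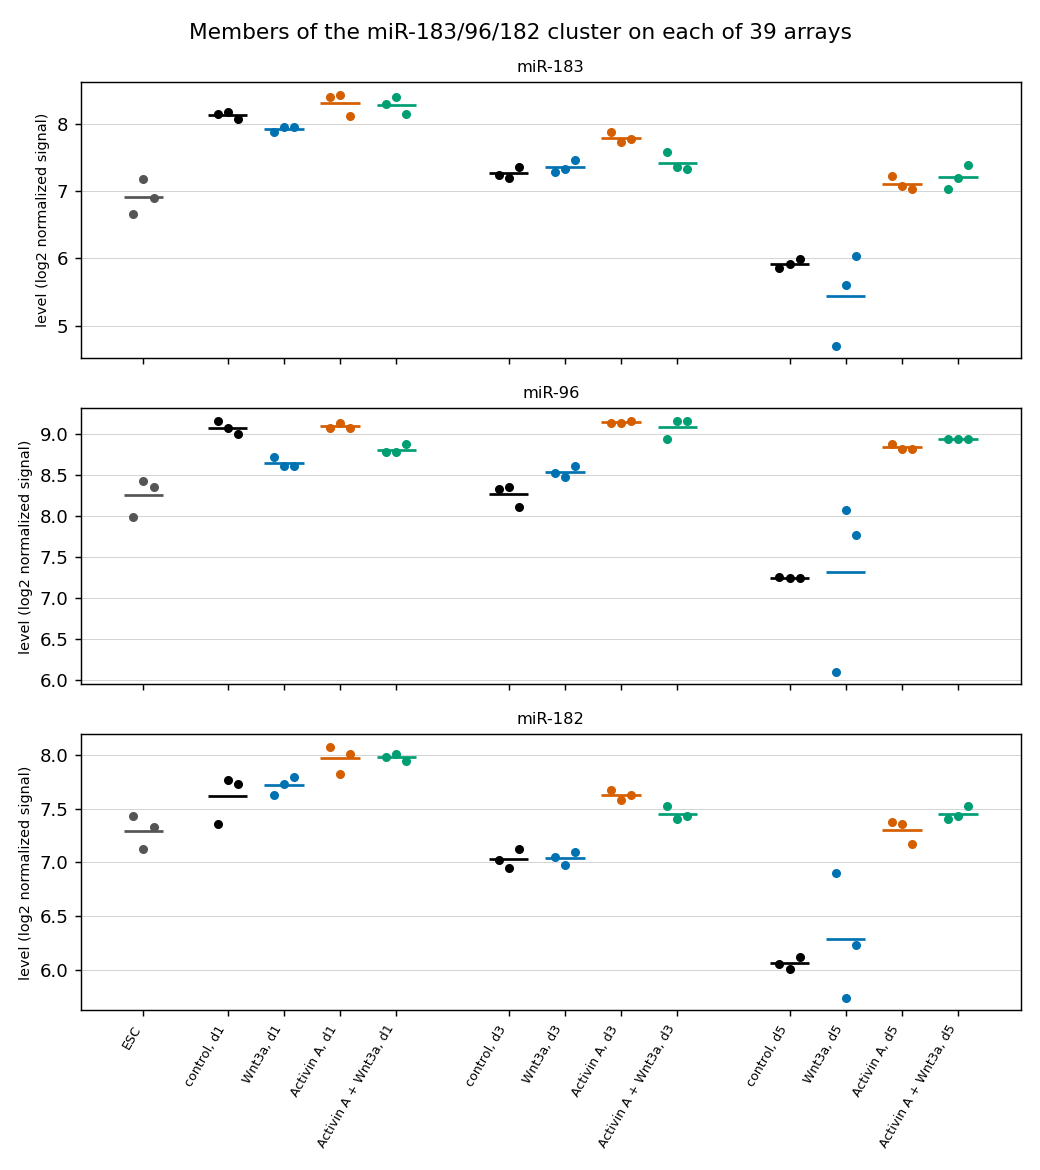
Level of each member (log2 normalized signal, y axis) on every array, with groups of 3 arrays along the x axis; points are arrays in replicate order and bars are group means. The control and Wnt3a groups of day 5 have the lowest means for each member, and the Wnt3a arrays of day 5 scatter most.

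The 13 groups were put in order of each member's group means. This order comes from the same values, and the share of all miRNAs that part at such places was not counted, so these places are descriptions. For miR-183, neighbouring groups did not overlap in 3 places: between the day 5 control and ESCs, between Activin A alone and the combined treatment at day 3, and between Wnt3a and control at day 1. For miR-96 the ranges parted between Wnt3a at day 3 and control at day 3, between Activin A plus Wnt3a and Wnt3a at day 1, between Activin A alone and the combined treatment at day 5, and between the latter and the day 1 control. For miR-182 the ranges parted between the day 3 control and Wnt3a at day 5, between ESCs and Wnt3a at day 3, and between Activin A and Wnt3a at day 1. They also parted between Activin A at day 5 and the combined treatment at days 3 and 5, which tied. All other neighbours in the 3 orders overlapped. Activin A plus Wnt3a had the same 3 values of miR-182 at days 3 and 5, and miR-96 had the same value on all 3 Activin A plus Wnt3a arrays of day 5 (SD 0), both through shared ranks.

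Leaving the undifferentiated state came with higher miR-183 and miR-96. On the 3 ESC arrays miR-183 was 6.66, 7.17 and 6.90, and on the day 1 control arrays it was 8.15, 8.18 and 8.07. All day 1 arrays were above all ESC arrays, and 38.1% of the miRNAs tested did not overlap between these groups. The rise of 1.22 ± 0.18 (SE; 2.33-fold) had an adjusted p of 4.50e-06, and 17.4% of the 373 miRNAs tested were called higher in this comparison. miR-96 was 7.98, 8.43 and 8.36 in ESCs and 9.16, 9.07 and 9.002 in the day 1 control, and rose by 0.82 ± 0.25 (adjusted p = 0.0103). Without ESC replicate 1 that difference was 0.69 and was not called (adjusted p = 0.0671). miR-182 differed by 0.32 ± 0.16, with overlapping groups, and did not pass (adjusted p = 0.136). It was called, at 0.32 with an adjusted p of 0.0130 (limma), without the Wnt3a array of day 5 that stood apart. That array enters this comparison only through the shared spread and the joint normalization. With either scaling to the 75th percentile miR-182 was called too, at 0.58. All 6 arrays of this comparison lay on 1 slide. Of the 5 members of the miR-200 family, which are epithelial miRNAs, all were called higher at day 1 than in ESCs, with a median difference of 1.06 beside a median of 0.00 over all miRNAs tested. Markers of feeder fibroblasts (5 rows of 6 listed, miR-143, miR-145, miR-199a-3p and miR-214 among them) were present in this comparison: their summed normalized signal was 383 to 461 in ESCs and 899 to 931 in the day 1 control, with 3 of the 5 detected on all 3 arrays of each group, and by day 3 it was 17.7 to 25.3 in the control. Their part in the rise of miR-183 and miR-96 was not tested.

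From day 1 on, the normalized level of all 3 members fell in the control. The raw signals were not lower at day 3. miR-183 read 123 to 150 at day 1 and 169 to 179 at day 3. miR-96 read 273 to 294 and 295 to 378, and miR-182 read 65.4 to 118 and 143 to 152. The fall to day 3 is thus relative to the other miRNAs on the array. More miRNAs were detected at day 3 (254 to 302) than at day 1 (184 to 237). In the day 3 control miR-183 was 7.24, 7.19 and 7.36, and by day 5 it was 5.85, 5.92 and 5.99. No array of a later day overlapped one of an earlier day, which held for 61.4% of the miRNAs tested between days 1 and 3 and for 63.3% between days 3 and 5. The falls from day 1 to day 3 were 0.87 ± 0.18 for miR-183 (adjusted p = 0.000131), 0.81 ± 0.25 for miR-96 (adjusted p = 0.00563) and 0.59 ± 0.16 for miR-182 (adjusted p = 0.00175), with 21.7% of the 373 miRNAs tested called lower and a median difference of 0.50 over all of them. From day 3 to day 5 miR-183 fell by 1.34 ± 0.18 (adjusted p = 6.05e-07), miR-96 fell by 1.02 ± 0.25 (adjusted p = 0.00113) and miR-182 fell by 0.97 ± 0.16 (adjusted p = 7.24e-06), with 20.9% called lower. These days lay on different slides: in a fit with a slide term none of the 3 falls from day 1 to day 3 was called (−0.60, −0.72 and −0.66, with adjusted p of 0.227, 0.302 and 0.112). At day 5 the control was below ESCs on the normalized scale by 0.99 ± 0.18 for miR-183, 1.01 ± 0.25 for miR-96 and 1.23 ± 0.16 for miR-182, with adjusted p of 2.22e-05, 0.000686 and 5.65e-08 and with 23.3% of miRNAs called lower. The raw signals were not lower than in ESCs. In ESCs miR-183 read 46.4 to 56.6, miR-96 139 to 164 and miR-182 54.8 to 83.3. In the day 5 control they read 76.7 to 80.4, 195 and 80.5 to 85.9. The miR-290 cluster, which marks undifferentiated ESCs, was called lower than in ESCs for 9 and higher for 1 of its 10 members tested, with a median of −2.41 beside 0.55 over all miRNAs tested. Markers of neural cells (miR-124, miR-9, miR-219 and miR-128 among them) were called higher for 5 of 5, with a median of 5.45. Of these 5, 3 were detected on no ESC array and none on all 3. Undetected values sit at the floor of 2 after normalization, so the size of this median depends on that floor.

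With Activin A the members kept a higher level. At day 3 miR-183 was 7.88, 7.73 and 7.77 with Activin A against 7.24, 7.19 and 7.36 in the control, a difference of 0.53 ± 0.08 (adjusted p = 0.000415). miR-96 was 9.13, 9.13 and 9.16 against 8.32, 8.36 and 8.11, a difference of 0.88 ± 0.08 (1.83-fold, adjusted p = 1.02e-05). miR-182 was 7.67, 7.58 and 7.63 against 7.03, 6.95 and 7.12, a difference of 0.59 ± 0.06 (adjusted p = 2.01e-05). In each case all Activin A arrays were above all control arrays, and all 3 members were called higher, against a background of 25.5% of the 326 miRNAs tested. The groups did not overlap for 58% of the miRNAs tested. The 2 control arrays that shared a slide with the Activin A arrays gave differences of 0.52, 0.90 and 0.59 for miR-183, miR-96 and miR-182.

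At day 5 the same comparison gave differences over 2-fold on the quantile-normalized scale. miR-183 was 7.22, 7.08 and 7.03 with Activin A and 5.85, 5.92 and 5.99 in the control, a difference of 1.19 ± 0.28 (2.28-fold, 95% interval 0.56 to 1.82, adjusted p = 0.00814). miR-96 was 8.87, 8.82 and 8.82 against 7.26, 7.24 and 7.24, a difference of 1.59 ± 0.41 (3.01-fold, interval 0.65 to 2.53, adjusted p = 0.0138). miR-182 was 7.38, 7.36 and 7.17 against 6.05, 6.01 and 6.12, a difference of 1.24 ± 0.23 (2.36-fold, interval 0.71 to 1.77, adjusted p = 0.00243). No Activin A array overlapped a control array, which held for 73.4% of the 368 miRNAs tested. All 3 members were called higher, as were 18.2% of the miRNAs tested, and 13.6% were called higher and over 2-fold. Without the array of Wnt3a that stood apart the differences were 1.19 ± 0.13, 1.60 ± 0.07 and 1.24 ± 0.12 for miR-183, miR-96 and miR-182, and the adjusted p were 6.88e-05, 2.05e-07 and 3.66e-05. After normexp background correction they were 0.52, 1.03 and 0.57, still called (adjusted p of 0.00168, 0.00378 and 0.00192). On the slide that held 2 Activin A and 3 control arrays the differences were 1.23, 1.60 and 1.31. The 2 probes of a member gave the same direction, for example 1.48 and 1.51 in raw log2 signal for miR-183 and 1.57 and 1.81 for miR-182. Set against ESCs, which were on another slide and in another scan session, Activin A at day 5 left miR-183 and miR-182 with normalized differences of 0.20 ± 0.18 (95% interval −0.18 to 0.57) and 0.0059 ± 0.16 (interval −0.31 to 0.33), which were not called. Their raw signals were higher with Activin A: 207 to 244 against 46.4 to 56.6 for miR-183 and 234 to 276 against 54.8 to 83.3 for miR-182. miR-96 was 0.58 ± 0.25 above ESCs (adjusted p = 0.0418, where 47.2% of the 373 miRNAs tested were called higher), a call that was lost without any one of 5 arrays, at most to 0.44 with an adjusted p of 0.174 without ESC replicate 1. These comparisons with ESCs changed with the scaling: at the 75th percentile of all miRNAs miR-96 was 0.20 above ESCs and not called (adjusted p = 0.501), and at the 75th percentile of the miRNAs detected on all arrays miR-183 (0.58, adjusted p = 0.0152) and miR-182 (0.32, adjusted p = 0.0283) were called too.

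**Figure D2:**
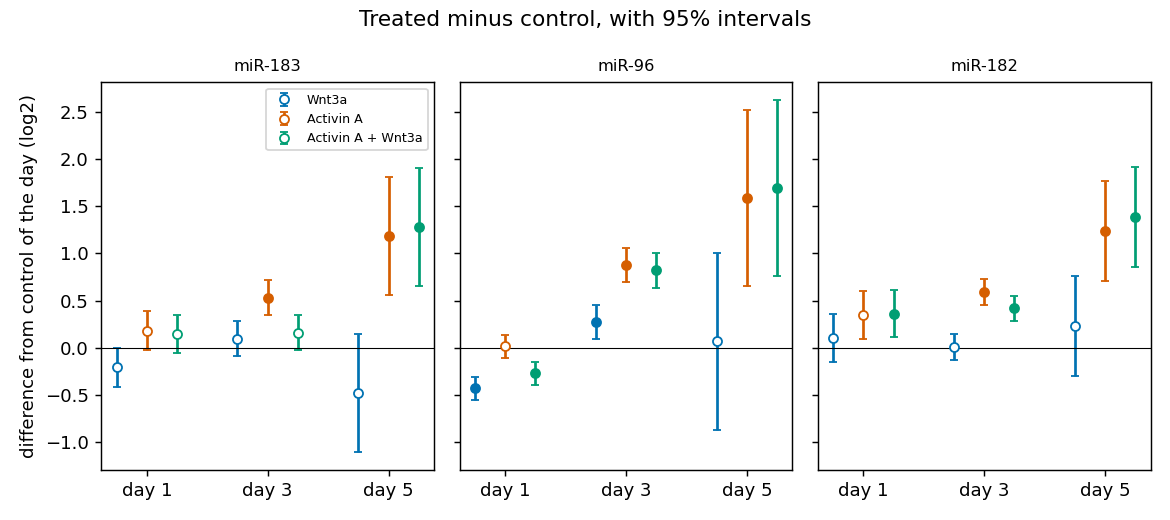
Treated minus control of the same day (log2, y axis) for each member, by day and treatment, with 95% intervals of the fit; filled points had an adjusted p under 0.05. Activin A, alone or with Wnt3a, gave the differences over 1 at day 5, and the wide intervals of day 5 include the Wnt3a array that stood apart.

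Activin A plus Wnt3a gave day 5 values close to those of Activin A alone. miR-183 was 7.03, 7.19 and 7.38 and differed from control by 1.28 ± 0.28 (adjusted p = 0.00435). miR-96 was 8.94 on each array and differed by 1.69 ± 0.41 (adjusted p = 0.00848). miR-182 was 7.40, 7.43 and 7.52 and differed by 1.39 ± 0.23 (adjusted p = 0.00104). For each member the 3 arrays of this group were above the 3 control arrays, and 73.4% of the miRNAs tested did not overlap between the groups. All 3 members were called higher, against 21.5% of the miRNAs tested. Control and combined treatment shared no slide at day 5. In a fit with a slide term the differences were 1.40 for miR-183 (adjusted p = 0.0970) and 1.72 for miR-96 (adjusted p = 0.169), which were not called, while miR-182 kept its call. On the slide that held both Wnt3a groups, combined minus Wnt3a alone was 1.76 ± 0.28 for miR-183, 1.63 ± 0.41 for miR-96 and 1.16 ± 0.23 for miR-182 (adjusted p of 0.000834, 0.0117 and 0.00358, where 20.1% of miRNAs were called higher). Without the array that stood apart these were 1.39, 1.03 and 1.46, all called. The step from Activin A to Activin A plus Wnt3a was 0.093 (95% interval −0.54 to 0.72), 0.10 (interval −0.83 to 1.04) and 0.15 (interval −0.38 to 0.68), and none was called. In this comparison 3.53% of miRNAs were called higher and 1.36% lower. Without the array that stood apart these steps were 0.092, 0.11 and 0.15 (adjusted p of 0.757, 0.409 and 0.517). The interaction at day 5, the effect of Wnt3a with Activin A less its effect without, was 0.57, 0.036 and −0.079 for miR-183, miR-96 and miR-182. None was called. Without that array it was 0.20, −0.57 and 0.22, and that of miR-96 was called (limma, adjusted p = 0.0115). The share of all miRNAs called without that array is not given.

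At day 3 miR-183 was lower when Wnt3a was added to Activin A. It was 7.58, 7.36 and 7.33 with both, below all 3 arrays of Activin A alone, and it fell by 0.37 ± 0.08 (adjusted p = 0.0103, where 14.4% of miRNAs were called lower and 43.9% did not overlap). In the authors' matrix with columns as named the difference was 0.40, in the opposite direction (adjusted p = 0.00707). It was then 0.16 ± 0.08 above control, with overlapping groups and no call (adjusted p = 0.121). miR-96 was 8.94, 9.16 and 9.16, a difference of −0.055 ± 0.08 from Activin A alone (adjusted p = 0.665), and 0.82 ± 0.08 above control (adjusted p = 1.50e-05). miR-182 was 7.52, 7.40 and 7.43, which was 0.17 ± 0.06 below Activin A alone (adjusted p = 0.0562) and 0.42 ± 0.06 above control (adjusted p = 0.000195). Called higher than control were 27% of the 326 miRNAs tested. At the 75th percentile of all miRNAs miR-96 and miR-182 were also called lower with both factors than with Activin A alone (−0.35 and −0.29, adjusted p of 0.00445 and 0.00434). The difference between the effect of Wnt3a with Activin A and its effect without was −0.47 ± 0.12 for miR-183 (adjusted p = 0.0193, with 11.3% of miRNAs called lower), and for miR-96 and miR-182 it was −0.33 ± 0.11 and −0.18 ± 0.08, not called (adjusted p of 0.0702 and 0.153). With scaling over the miRNAs detected on all arrays the value of miR-183 was not called (−0.37, adjusted p = 0.0762) and that of miR-96 was (−0.32, adjusted p = 0.0182). The 3 arrays of combined treatment at day 3 were on a slide with no other day 3 array, so slide and treatment cannot be told apart there. In a fit of all 39 arrays, whose spread includes the array that stood apart, neither the miR-183 difference from Activin A alone nor its interaction was called (adjusted p of 0.339 and 0.389).

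Wnt3a alone gave small differences at days 1 and 3. At day 1 miR-96 was 8.72, 8.61 and 8.61 with Wnt3a and 9.16, 9.07 and 9.002 in the control, and it fell by 0.43 ± 0.05 (adjusted p = 0.00224, where 10% of the 240 miRNAs tested were called lower). With Activin A plus Wnt3a it fell by 0.27 ± 0.05 from control (adjusted p = 0.00919, where 12.5% were called lower) and by 0.28 ± 0.05 from Activin A alone (adjusted p = 0.0127, where 4.58% were called lower). Without replicate 2 of the combined treatment that last difference was −0.27 and was not called (adjusted p = 0.0572). The Wnt3a and control arrays of day 1 shared no slide, and in a fit with a slide term the 3 differences were −0.40, −0.24 and −0.26 and none was called (adjusted p of 0.131, 0.315 and 0.188). Activin A alone left miR-96 within 0.014 ± 0.05 of control at day 1 (95% interval −0.11 to 0.14). miR-183 and miR-182 were not called with Wnt3a or with Activin A at day 1. miR-182 was 0.36 ± 0.11 above control with both factors (adjusted p = 0.0434, where 12.5% were called higher), a call lost when any one of 8 of the 12 arrays was left out, for example at 0.23 (adjusted p = 0.0880) without control replicate 1. At day 3 miR-96 was 8.52, 8.48 and 8.61 with Wnt3a, all above the control arrays, and rose by 0.27 ± 0.08 (adjusted p = 0.0278, where 15.6% were called higher and 46.9% did not overlap). That call was lost without control replicate 3 (0.20, adjusted p = 0.0690), Wnt3a replicate 1 (0.28, adjusted p = 0.0595) or Wnt3a replicate 3 (0.24, adjusted p = 0.0935). At day 5 Wnt3a differed from control by −0.48 ± 0.28 for miR-183, 0.067 ± 0.41 for miR-96 and 0.23 ± 0.23 for miR-182, none of them called. Without replicate 1 of Wnt3a the differences were −0.11, 0.67 and −0.076, and miR-96 was called (adjusted p = 0.000494), where 5.43% of miRNAs were called higher with that array included.

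The differences of both Activin A treatments from control were larger at day 5 than at day 1. In the fit of all 39 arrays the difference between Activin A and control was larger at day 5 than at day 1 for all 3 members, by 1.01 ± 0.26 for miR-183, 1.57 ± 0.35 for miR-96 and 0.89 ± 0.22 for miR-182 (adjusted p of 0.00285, 0.000719 and 0.00208, where 15% of the 373 miRNAs tested were called higher). From day 3 to day 5 it grew for miR-182 by 0.65 ± 0.22 (adjusted p = 0.0339, where 10.2% were called higher), and the values for miR-183 and miR-96, 0.66 ± 0.26 and 0.71 ± 0.35, were not called (adjusted p of 0.0756 and 0.178). The array that stood apart enters these errors through the shared spread. Without it the errors of the changes from day 1 to day 5 were 0.16 for miR-183 and 0.12 for miR-96. The 2 uncalled changes are not given without it, so no split between members is drawn from them. For the combined treatment all 3 members were again called between days 1 and 5, against 22.5% of miRNAs. With slide in the fit that of miR-183 was 0.96 and was not called (adjusted p = 0.188). From day 3 to day 5 miR-183 and miR-182 were called, against 15.5%, and from day 1 to day 3 miR-96 was, against 12.3%. The uncalled changes of this treatment are likewise not given without the array that stood apart. For Wnt3a alone no member's difference from control was called as changed between any of the days, all arrays included (lowest adjusted p = 0.229). The array that stood apart is in these fits and widens their errors. Without it miR-96 was 0.67 above control at day 5, beside differences of −0.43 at day 1 and 0.27 at day 3. Its changes between days are not given without that array, so the lack of a call is not read as a lack of change. With both factors the day 5 levels were 0.29 ± 0.18 and 0.16 ± 0.16 above ESCs for miR-183 and miR-182, which were not called (adjusted p of 0.172 and 0.419), and 0.68 ± 0.25 above for miR-96 (adjusted p = 0.0190, where 43.7% were called higher). Without the array that stood apart miR-183 was called, at 0.29 (adjusted p = 0.0268). At the 75th percentile of all miRNAs miR-96 was 0.26 and not called (adjusted p = 0.388), and with scaling over the detected miRNAs miR-183 (0.54, adjusted p = 0.0245) and miR-182 (0.35, adjusted p = 0.0194) were called. With Wnt3a alone all 3 members were called below ESCs at day 5, with differences of −1.47 for miR-183, −0.94 for miR-96 and −1.004 for miR-182, against 23.6% of miRNAs called lower. Without the array that stood apart they were −1.10, −0.34 and −1.31, all called. These differences are on the normalized scale. Raw signals with Wnt3a at day 5 were 28.0, 118 and 110 for miR-183, 61.9, 538 and 313 for miR-96, and 99.0, 128 and 121 for miR-182. In ESCs they were 46.4 to 56.6, 139 to 164 and 54.8 to 83.3. Outside the array that stood apart the raw signals were thus above those of ESCs.

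Over the 3 treated groups and the control of a day, the F-test passed at day 1 for miR-183 and miR-96 (adjusted p of 0.0373 and 0.00105) and not for miR-182 (adjusted p = 0.0755), where 24.2% of miRNAs passed. At day 3 it passed for all 3 members (adjusted p of 0.00136, 1.55e-05 and 2.28e-05 for miR-183, miR-96 and miR-182, against 70.2% of miRNAs), and at day 5 too (adjusted p of 0.00122, 0.00947 and 0.00168, against 46.5%).

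The hairpins lie within one host gene, and the ratios of the members on each array were compared between the 4 groups of a day, by an exact permutation test over the 12 arrays (15400 ways to form the groups; 9 tests, Benjamini-Hochberg adjusted). At day 3 the log2 ratio of miR-183 to miR-96 was −1.002 ± 0.22 (SD, n = 3) in the control, −1.18 ± 0.05 for Wnt3a, −1.35 ± 0.08 for Activin A and −1.66 ± 0.26 for both, and it differed between groups (exact permutation test, adjusted p = 0.00994). The ratio of miR-183 to miR-182 at day 3 ran from −0.03 ± 0.08 with both factors to 0.32 ± 0.07 with Wnt3a (exact permutation test, adjusted p = 0.00175). Both ratios were lowest on average with the combined treatment. Its 3 arrays lay on a slide with no other day 3 array, scanned in session 2, and the other day 3 arrays were scanned in session 1. Slide, session and treatment therefore cannot be told apart in these ratios, and the permutation did not take slides into account. Which of the 2 Activin A groups was lowest also depends on which deposit is labelled correctly. After normexp background correction the ratio of miR-183 to miR-182 was not called (exact permutation test, adjusted p = 0.0821). The ratio of miR-96 to miR-182 differed at day 3 (1.23 ± 0.22 in the control, 1.63 ± 0.19 with both; exact permutation test, adjusted p = 0.0355) and at day 1 (1.46 ± 0.30 in the control, 0.83 ± 0.09 with both; exact permutation test, adjusted p = 0.0242). With each array scaled to the 75th percentile of the miRNAs detected on all arrays, neither was called (exact permutation test, adjusted p of 0.0912 at day 3 and 0.163 at day 1). The other 2 ratios of day 1 gave an adjusted p of 0.0588 and 0.339 by the exact permutation test. Over the 11 arrays left when each array was omitted in turn, the ratio of miR-183 to miR-182 at day 3 kept its call, that of miR-183 to miR-96 at day 3 lost it in 3 of 12 cases (highest adjusted p 0.0735, exact permutation test) and that of miR-96 to miR-182 in 10 of 12 at day 3 and 3 of 12 at day 1 (highest adjusted p 0.218 and 0.0834, exact permutation test). At day 5 no ratio passed (exact permutation test, adjusted p of 0.297, 0.630 and 0.877), and there the SD of the Wnt3a group was 0.55, 1.17 and 1.63, since on the array that stood apart miR-183 and miR-96 were the lowest of the group (4.70 and 6.10) and miR-182 the highest (6.90). Without it the ratios of miR-183 to miR-96 and of miR-96 to miR-182 were called (exact permutation test, adjusted p of 0.0174 and 0.0113), with means of −2.11 and 1.93 over the 2 remaining Wnt3a arrays.

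**Figure D3:**
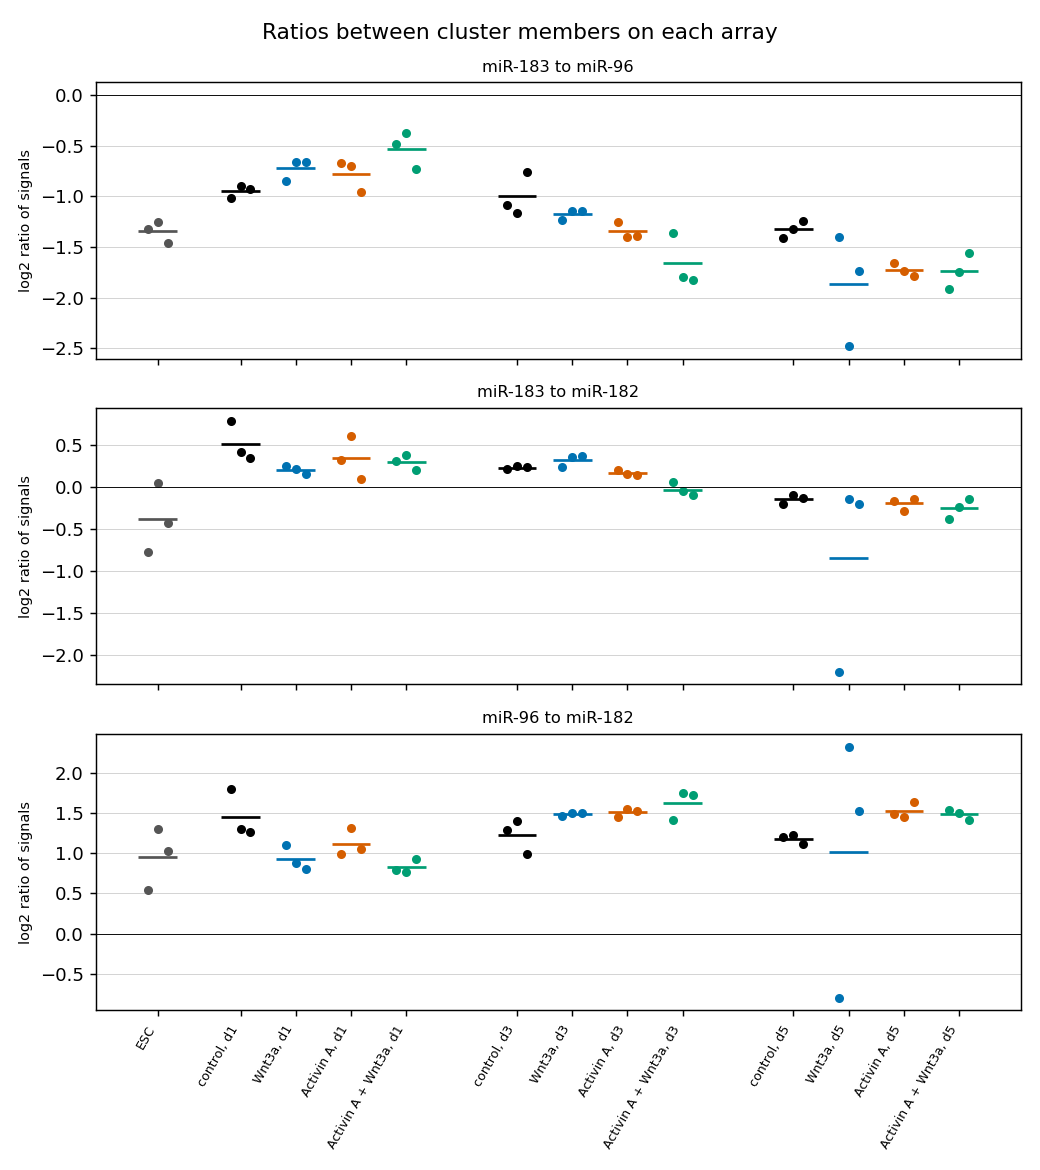
Log2 ratio of the normalized signals of 2 members on the same array (y axis), for the 3 pairs of members, with groups of 3 arrays along the x axis; points are arrays and bars are group means. At day 3 the ratio of miR-183 to either other member is lowest with Activin A plus Wnt3a, whose arrays shared no slide with the other day 3 arrays. The day 5 Wnt3a arrays scatter most.

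The star strand of the miR-183 hairpin was measured too. miR-183* was not detected on the 3 ESC arrays and was detected on all 36 others, with raw signals between 4.4 and 26.0. At day 3 it was 4.10 ± 0.04 with Activin A and 4.02 ± 0.08 under the combined treatment, against 3.06 ± 0.52 in the control, differences of 1.04 ± 0.20 and 0.96 ± 0.20 (adjusted p of 0.00181 and 0.00247). The difference between combined and single treatment at day 3 was −0.077 ± 0.20 (adjusted p = 0.844) for this strand, beside −0.37 ± 0.08 for miR-183. At day 5 its raw signal was 26.0, 22.0 and 24.3 with Activin A and 5.8, 5.1 and 4.4 in the control. The 3 control values fell to the floor of 2 after normalization, so no fold is given. Against ESCs no fold is given either, since the lowest level detected on the ESC arrays, 4.66 on average, lay above every other group mean except that of the day 1 control (4.69).

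Across the 13 group means the members ran together. The correlation was r = 0.94 for miR-183 with miR-182, r = 0.90 for miR-96 with miR-182 and r = 0.88 for miR-183 with miR-96, and over the 39 arrays it was 0.85, 0.72 and 0.85 in the same order. Without the array that stood apart the 39-array values became 0.93, 0.82 and 0.80. These points share arrays and normalization, and the values are descriptions. Among the 160 other miRNAs detected on at least 2 of 3 arrays in every group, the one most like miR-183 was miR-195 (r = 0.95), followed by miR-182 and miR-497 (r = 0.92), which shares a cluster with miR-195. miR-31 (r = 0.88) and miR-293 of the miR-290 cluster (r = 0.88) were next. miR-96 was most like members of the miR-200 family: miR-200c (r = 0.95), miR-200b (r = 0.95) and miR-429 (r = 0.93), with miR-295 of the miR-290 cluster between them (r = 0.94) and miR-182 after them. miR-182 was most like miR-31 (r = 0.95), miR-27b (r = 0.95), miR-294* (r = 0.94) and miR-293 (r = 0.94), with miR-183 the next. The least like were miR-494, miR-106b and miR-17* for miR-183 (r of −0.94, −0.91 and −0.90), miR-130b, miR-93 and miR-20a for miR-96 (r of −0.91, −0.91 and −0.85), and miR-296-5p, miR-93 and miR-342-3p for miR-182 (r of −0.94, −0.93 and −0.92). With 75th percentile scaling the r of the named miRNAs kept their signs, the smallest in size being −0.60 for miR-20a with miR-96. The order among the named miRNAs changed. miR-96 was then closer to miR-182 (r = 0.95) than to miR-200b, miR-200c and miR-429 (r of 0.90, 0.88 and 0.86). Likewise miR-183 was closer to miR-182 (r = 0.921) than to miR-195 (r = 0.910). miR-182 was closer to miR-183 (r = 0.921) than to miR-27b and miR-31 (r of 0.906 and 0.841).

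**Figure D4:**
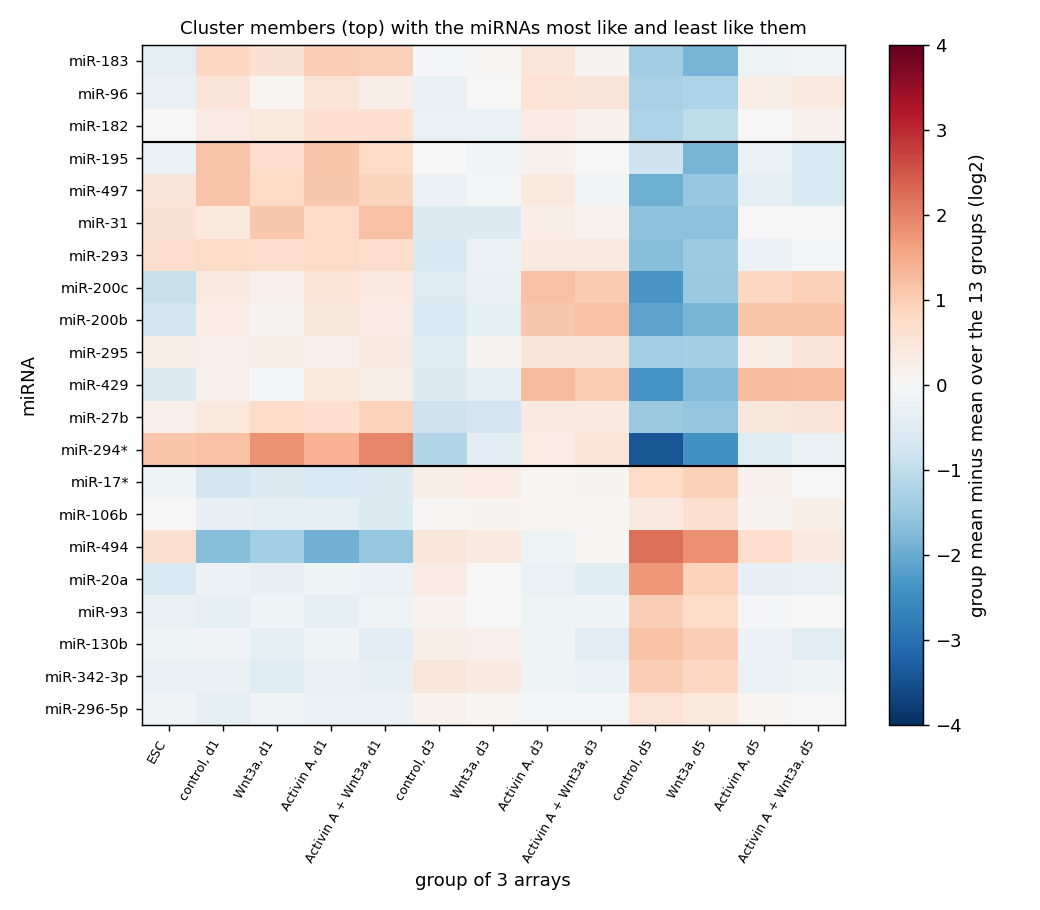
Group mean minus the mean over the 13 groups (log2, colour scale) for the 3 members at the top, the miRNAs most like them in the middle and those least like them at the bottom, with groups along the x axis. The upper blocks are low (blue) in the control and Wnt3a groups of day 5, where the lower block is high (red).

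The miR-200 family, epithelial miRNAs, and the miRNAs of undifferentiated and primed pluripotent cells were set beside the members. At day 5 all 5 miR-200 miRNAs were called higher than control, whether Wnt3a was added to Activin A or not, with medians of 3.59 for Activin A alone and 3.54 for both factors, beside −0.03 and 0.00 over all miRNAs tested. miR-429 was 8.27 ± 0.02 (SD, n = 3) with Activin A and 4.68 ± 0.08 in the control, a difference of 3.59 ± 0.13 (SE, adjusted p = 3.39e-08). miR-200b was 9.09 ± 0.03 against 5.87 ± 0.03, a difference of 3.22 ± 0.12 (SE, adjusted p = 3.66e-08). These differences were larger in log2 than those of the 3 cluster members, a contrast that was not itself tested. Against ESCs all 5 were called higher with Activin A at day 5, with a median of 1.88, while of the cluster miR-96 alone was, a split that changed with the scaling as given above. The miR-290 cluster was called higher than control for 8 of 10 members tested with either Activin A treatment at day 5, with medians of 1.53 and 1.73, and the miR-302 cluster of primed pluripotent cells for 4 of 5 with each, with medians of 2.09 and 1.98. Neural markers went the other way, with 4 of 5 called lower with each Activin A treatment and medians of −2.23 and −4.36. The marker that sets the second median lay near the floor with both factors (1.38 ± 0.67, SD), so the size of that median depends on the floor. Feeder markers had summed signals of 24.3 to 26.0 in the day 5 control, 22.0 to 26.3 with Activin A and 60.2 to 66.9 with both factors. In arrays of whole cultures, fewer cells of a type and less RNA per cell cannot be told apart, and the part of these marker differences in the values of the cluster was not tested.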

How the data were processed

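Total RNA of 39 samples was hybridised to 1-colour (Cy3) Agilent mouse miRNA arrays, and the authors deposited the scanner output, whose total gene signal is an intensity, background-subtracted and summed over the probes of a miRNA. An undetected miRNA is given as 0.1. The authors also deposited a matrix of log2 values; 18 of its 39 columns ranked miRNAs like an array of another group, so it served only as an alternative. Intensities were quantile-normalized over the 39 arrays, as in the study, floored at 2 and converted to log2. miRNAs detected on at least 2 of 3 arrays of a group entered limma 3.58.1 (R 4.3.3): 12 arrays for comparisons within a day (240, 326 and 368 miRNAs at days 1, 3 and 5) and all 39 for time (373). Adjusted p-values are Benjamini-Hochberg over all miRNAs tested, and the procedure was tested on simulated data. Replicate numbers did not pair samples: same-numbered residuals correlated between −0.49 and 0.43. Members and the marker lists were chosen with earlier results of these data known. Named miRNAs were the members, the other strand of their hairpins, miRNAs with their seeds, and the 5 most and 3 least like each member by correlation of group means, plus at most 4 per marker list.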

Additional observations from a re-analysis of the deposited data

Results flagged for a closer look

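With all arrays included, 2 effects under the same contrast differed by an interaction test for 11 results of the cluster. The day 5 interaction of miR-96, called without the array that stood apart, is not among them. The causes were not tested. The effect of Activin A on control was larger at day 5 than at day 1 for miR-183, miR-96 and miR-182, by 1.01, 1.57 and 0.89 on the log2 scale, with adjusted p of 0.00285, 0.000719 and 0.00208 in limma's fit of the 39 arrays, where 31.4% of miRNAs passed in either direction. For miR-182 it was also larger at day 5 than at day 3, by 0.65 (adjusted p = 0.0339; 20.9% of miRNAs passed), a call lost in 11 of 50 alternatives.

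The effect of Activin A plus Wnt3a was larger at day 5 than at day 1 by 1.14 for miR-183, 1.96 for miR-96 and 1.03 for miR-182 (limma, adjusted p of 0.000636, 3.79e-05 and 0.000346; 44.8% of miRNAs passed). With slide in the fit the value of miR-183 was 0.96 and its call was lost (adjusted p = 0.188). It was larger at day 5 than at day 3 by 1.12 for miR-183 and 0.97 for miR-182 (adjusted p of 0.00138 and 0.00124; 28.4% passed), calls lost in 1 of 50 alternatives each. For miR-96 it was larger at day 3 than at day 1, by 1.09 (adjusted p = 0.0254; 21.4% passed), a call lost in 7 of 50 alternatives. The control samples of a day enter both treatments' effects of that day, so these results share arrays. At day 3 the effect of Wnt3a on miR-183 was lower with Activin A than without by 0.47 (a difference of −0.47 ± 0.12, adjusted p = 0.0193), a call lost in 2 of 26 alternatives (1 fit of all 39 arrays, and scaling over the miRNAs detected on all arrays) and turned in 1 (0.30 in the authors' matrix with columns as named), the array groups and their slides being as described for that comparison.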

How the results depend on the processing

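Of 106 results with a test, 64 were called, and 37 of these kept call and direction in all alternatives run. The 3 day 3 and 3 day 5 differences between Activin A and control kept their direction, and the one call lost among them was miR-183 at day 3 in the authors' matrix with columns as named. Differences are log2, and causes of the changes were not tested unless named. Slide, detection at low signal and 3 arrays a group limit all of them.

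With 1 fit of all 39 arrays these were not called: miR-183, combined treatment minus Activin A at day 3 (−0.37); miR-96 at day 1, Wnt3a (−0.43) and combined (−0.27) minus control and combined minus Activin A (−0.28), and Wnt3a minus control at day 3 (0.27); and miR-182, combined minus control at day 1 (0.36). With slide in the fit, calls were lost for the control from day 1 to day 3 (−0.60, −0.72 and −0.66 for miR-183, miR-96 and miR-182), for combined minus control at day 5 (1.40 for miR-183, 1.72 for miR-96) and at day 1 (−0.24 for miR-96, 0.30 for miR-182), and for miR-96 at day 1 with Wnt3a (−0.40) and combined minus Activin A (−0.26). Uncalled values turned for combined minus Activin A at day 1 (0.16 for miR-183, −0.033 for miR-182) and for Wnt3a minus control at day 1 (0.089 for miR-183).

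When arrays were scaled to their 75th percentile of all miRNAs, the setting turned the sign of miR-182 at day 5 against ESCs (−0.13 with Activin A, −0.080 combined), at day 1 for combined minus Activin A (−0.34) and Wnt3a minus control (−0.13), and at day 3 for Wnt3a minus control (−0.22, adjusted p = 0.0160). It turned miR-183 for combined minus Activin A at day 5 (−0.016), combined minus control at day 3 (−0.066) and Wnt3a minus control at day 3 (−0.12), and miR-96 for Wnt3a minus control at day 5 (−0.077). Calls were lost for miR-182 combined minus control at day 1 (0.074) and for miR-96 at day 1 combined minus Activin A (−0.52), combined (−0.41) and Wnt3a minus control (−0.60), Wnt3a at day 3 (0.027), and Activin A and combined minus ESCs at day 5 (0.20 and 0.26). Calls were gained for the day 3 interaction of miR-96 (−0.38), for combined minus Activin A at day 3 (−0.29 for miR-182, −0.35 for miR-96) and for miR-182 in the day 1 control minus ESCs (0.58). Scaling over the miRNAs detected on all arrays turned uncalled values: miR-182 combined minus Activin A (−0.26) and Wnt3a minus control (−0.13) at day 1, and Wnt3a at day 3 (−0.071); miR-183 combined minus Activin A at day 5 (−0.033), combined minus control at day 1 (−0.027) and combined minus Wnt3a at day 3 (−0.018); and miR-96 Activin A at day 1 (−0.025) and Wnt3a at day 5 (−0.048). It gained the calls of miR-183 and miR-182 at day 5 minus ESCs (0.58 and 0.32 with Activin A, 0.54 and 0.35 combined), miR-96 in the day 3 interaction (−0.32), miR-182 in the day 1 control minus ESCs (0.58), miR-183 with Wnt3a at day 1 (−0.37) and the day 1 ratio of miR-183 to miR-96 (F = 8.97), and lost the day 3 interaction of miR-183 (−0.37), miR-182 combined at day 1 (0.013) and the ratio of miR-96 to miR-182 at day 1 (F = 2.62) and day 3 (F = 3.35). This scaling moved the median of all miRNAs by −0.19 for Activin A and −0.20 for combined minus control at day 5, and called 58 higher and 95 lower for Activin A (67 and 71 otherwise) and 57 and 124 for combined (79 and 91). At day 3 it called 67 and 138 for Activin A minus control (83 and 101) and 87 and 26 for combined minus Activin A (49 and 47), and at day 1 16 and 77 for Wnt3a (24 and 24) and 17 and 84 for combined (30 and 30).

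Normexp background correction turned miR-182 at day 5 against ESCs (−0.15 with Activin A, −0.069 combined), combined minus Activin A at day 1 (−0.014) and Wnt3a at day 3 (−0.018), and the day 5 interaction of miR-96 (−0.044). It gained calls for miR-183 combined minus ESCs at day 5 (0.18), combined minus control at day 1 (0.15) and day 3 (0.13) and for the day 1 ratio of miR-183 to miR-96 (F = 15.6, adjusted p = 0.00263, exact permutation test), and lost miR-182 combined minus control at day 1 (0.12) and the day 3 ratio of miR-183 to miR-182 (F = 4.13).

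In the authors' matrix with columns as named, where Activin A and combined columns are exchanged against the arrays, combined minus Activin A turned for miR-182 (−0.0096, 0.20 and −0.15 at days 1, 3 and 5), miR-183 (0.012, 0.40 and −0.093) and miR-96 (0.24, 0.074 and −0.10). Also turned were the day 3 interactions of miR-182 (0.19) and miR-183 (0.30), the day 5 interaction of miR-96 (−0.18), and miR-96 at day 1 with Activin A (−0.21) and combined (0.022) minus control. There miR-182 with Activin A at day 1 (0.36) and miR-183 combined at day 3 (0.54) were called, and miR-182 combined at day 1 (0.35) and miR-183 with Activin A at day 3 (0.14) were not. With columns matched to arrays, chosen after seeing the data, no sign turned.

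The difference of miR-182 between combined treatment and Activin A at day 3 was called with matched columns (−0.20), a floor of 8 (−0.17), normalization within the day (−0.18), a stricter detection filter (−0.17) and unmoderated tests (−0.17). With no detection filter miR-182 combined at day 1 (0.36) and miR-96 with Wnt3a at day 3 (0.27) were not called, and with unmoderated tests miR-182 combined at day 1 (0.36) was not. Replicate numbers share only a number; the replicate block called miR-182 combined minus Activin A at day 3 (−0.17) and not miR-182 combined at day 1 (0.36) or miR-96 with Wnt3a at day 3 (0.27).

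Leaving out 1 array at a time changed a call or a sign for the following, given as ranges. miR-182: combined minus Activin A −0.064 to 0.064 at day 1 and −0.21 to −0.15 at day 3, combined minus control at day 1 0.23 to 0.44, day 1 control minus ESCs 0.24 to 0.45, Wnt3a minus control −0.031 to 0.17, −0.034 to 0.051 and −0.076 to 0.51 at days 1, 3 and 5, Activin A at day 5 minus ESCs −0.080 to 0.074, and interactions −0.16 to 0.042 at day 1 and −0.36 to 0.22 at day 5. miR-183: combined minus Activin A at day 1 −0.13 to 0.030, combined minus Wnt3a at day 3 −0.015 to 0.11, Wnt3a minus control at day 1 −0.24 to −0.19, and combined at day 5 minus ESCs 0.16 to 0.42. miR-96: Activin A minus control at day 1 −0.023 to 0.055, combined minus Activin A −0.32 to −0.26 at day 1 and −0.094 to 0.018 at day 3, day 1 control minus ESCs 0.69 to 0.91, Wnt3a minus control 0.20 to 0.32 at day 3 and −0.32 to 0.67 at day 5, Activin A and combined at day 5 minus ESCs 0.44 to 0.67 and 0.55 to 0.77, and the day 5 interaction −0.57 to 0.42. The −0.57 came without replicate 1 of Wnt3a at day 5 and was called (limma, adjusted p = 0.0115). For the ratios of members, where leaving out arrays was chosen after seeing the data, F of miR-183 to miR-96 ran from 3.22 to 8.85, 4.95 to 17.6 and 1.09 to 5.55 at days 1, 3 and 5, and F of miR-96 to miR-182 from 4.79 to 6.96, 2.68 to 7.58 and 0.191 to 4.48.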
